A study of Mus musculus with 12 samples.

Results

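MHC class II genes and genes of dendritic cells were followed on arrays of whole lung tissue from control mice and from mice given cigarette smoke. The set holds 10 genes taken by symbol: the class II chains H2-Aa, H2-Ab1 and H2-Eb1, the invariant chain Cd74, the class II transactivator Ciita, and the dendritic cell genes Itgae, Fscn1, Cd86, Ccl17 and Ccl22. Every probe whose platform or current symbol is one of these names was used, which gave 21 of the 25697 probes and 10 of the 16593 named genes on the array. A probe was tested where its detection p-value lay below 0.05 on at least 3 of the 12 arrays, and 19 probes of 9 of the genes met this. Ccl22 and 1 of the 6 Itgae probes did not.

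All mice were female C57BL/6N animals kept under specific pathogen-free conditions, and the labels name no transgene or deleted gene in any group. The 4 groups were control mice at 4 months of age, mice treated with cigarette smoke at 4 months, control mice at 6 months and mice treated with cigarette smoke at 6 months, with 3 arrays in each. The labels call the arrays of a group biological replicates, and p-values measure the spread between them. No source used here gives the dose or length of the smoke exposure. The title of the series puts the arrays in a study of lymphoid tissue, B cells and macrophages in a model of chronic obstructive pulmonary disease.

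An MHC class II molecule is a dimer of an alpha and a beta chain that displays peptides from engulfed proteins to CD4 T cells. In C57BL/6 mice the I-A molecule is made from H2-Aa and H2-Ab1, and H2-Eb1 encodes the beta chain of I-E. The invariant chain Cd74 fills the peptide groove and is trimmed by cathepsins, and CIITA is the master switch of transcription of these genes. Dendritic cells and B cells carry class II at high levels, and in the lung macrophages and alveolar type 2 cells can carry it too. In the airway wall, dendritic cells that bear the integrin CD103 (Itgae) take up antigen, mature and carry it to lymph nodes. Maturation brings the costimulatory protein CD86, the actin-bundling protein fascin (Fscn1) and the chemokines CCL17 and CCL22, which draw T cells that bear CCR4.

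Levels below are normalized log2 intensities of a probe, and differences are log2 differences of group means with a standard error (SE) from limma. An adjusted p below 0.05 (limma, Benjamini-Hochberg over the 15490 tested probes) counted as passing, and the probe with the highest mean level stood for a gene in counts. Levels of different probes cannot be set against each other, and precision is limited by the 3 arrays of a group. The median raw intensity of an array was 18 to 28 and 55.1 to 57.6% of probes were detected per array. The lung surfactant gene Sftpc was detected on all arrays of each group, with group means of 14.03 to 14.33. Of the markers of dendritic cells, Zbtb46, a transcription factor of conventional dendritic cells, was detected on all arrays (group means 5.99 to 6.40), whereas Flt3, Xcr1, Ccr2 and Naaa were detected on 0 of 12. In whole tissue, fewer cells of a type and less RNA per cell cannot be told apart.

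The array labelled smoke, 6 months, replicate 1 stood apart in genes of the major histocompatibility complex. H2-Ea encodes the alpha chain of I-E, and C57BL/6 mice are known to make no transcript of it. Its probe ILMN_2741935 read 12.75 on that array and was detected there, whereas on the other 11 arrays it read 4.33 to 4.58 and was detected on none. The class I genes H2-Q5 (9.73 against 5.03 to 5.80 on the other arrays) and H2-K1 (probe ILMN_2795520, 11.09 against 8.23 to 8.84) and the beta-globin gene Hbb-b2 (10.78 against 5.62 to 7.05) were also far above the other arrays. These were the 4 probes on that array that lay over 1.5 above every other array, and 3 of them were H2 genes. Control replicate 1 at 4 months had 10 such probes and smoke replicate 1 at 4 months had 4. No other array had an H2 gene that far out. The H2-Ea value goes against the strain label of the array labelled smoke, 6 months, replicate 1. Its genotype was not tested, and these genes were chosen after their values were seen. The differences of the set at 6 months, and the counts and medians of the lists, are therefore given with and without it.

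The class II chain genes did not pass at either age. 0 of the 9 tested genes of the set passed at 4 months, where 1.65% of all 10541 tested genes did (1.28% higher and 0.37% lower). At an unadjusted p under 0.05 (limma) the count at 4 months was 2 of 9, beside 14.8% of all tested genes. The test gave 3 higher and 0 lower of 9 at 6 months (Itgae, Fscn1 and Cd86), where 3.35% of all tested genes were higher and 1.73% lower, and none of the 3 encodes a class II chain, the invariant chain or CIITA. With the 4 and 6 month differences averaged, 4 of 9 were higher (Ccl17 besides), against 4.3% of all tested genes. Without the array that stood apart the same 3 genes were higher at 6 months, with 3.11% of all tested genes. Averaged over ages 3 of 9 were then higher, with 4.5% of all tested genes, and Fscn1 no longer passed.

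**Figure D1:**
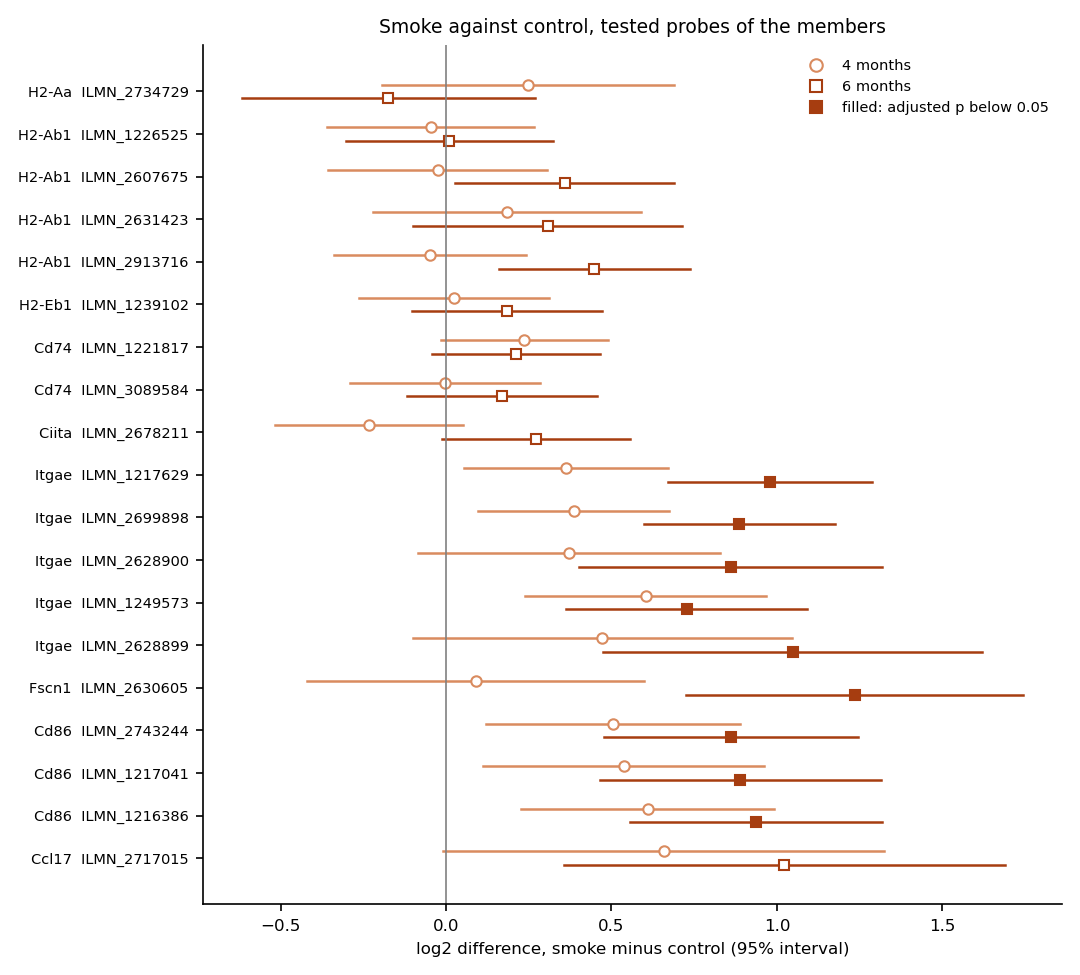
Log2 difference of smoke minus control lungs (horizontal axis) with its 95% interval for the 19 tested probes, at 4 months (circles) and 6 months (squares), 3 arrays a group. Filled symbols passed an adjusted p of 0.05: all probes of Itgae, Fscn1 and Cd86 at 6 months, and none at 4 months.

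The class II chains come first. Class II promoters share an X box and a Y box that RFX, CREB and NF-Y factors bind before CIITA docks on them. RefSeq promoters (GRCm38.p6) were held for 5 of the 10 genes, H2-Aa, H2-Eb1, Fscn1, Ccl17 and Ccl22. The last 120 bases before the start of H2-Aa (chr17:34287824-34287943, minus strand) and H2-Eb1 (chr17:34305747-34305866, plus strand) are shown because both hold a Y box, and those of Fscn1 (chr5:142960235-142960354, plus strand) because Fscn1 passed the test at 6 months. Capitals mark CTGATTGG (a Y box), TGACGTCA (a cAMP response element, as bound by CREB) and AGCAACNGA (part of an X box), searched on both strands.
H2-Aa: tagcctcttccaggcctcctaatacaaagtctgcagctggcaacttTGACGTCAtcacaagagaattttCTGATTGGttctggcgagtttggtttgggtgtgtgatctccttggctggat
H2-Eb1: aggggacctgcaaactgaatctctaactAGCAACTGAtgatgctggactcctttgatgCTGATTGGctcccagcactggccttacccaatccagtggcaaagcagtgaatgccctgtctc
Fscn1: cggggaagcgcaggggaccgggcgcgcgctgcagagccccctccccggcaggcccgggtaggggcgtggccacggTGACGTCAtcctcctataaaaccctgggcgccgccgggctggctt
CTGATTGG stood in 4.1% of the 32851 promoters of 300 bases in the table, TGACGTCA in 1.79% and AGCAACNGA in 1.34%. H2-Aa held CTGATTGG at 51 to 44 and TGACGTCA at 74 to 67 bases before the start. H2-Eb1 held CTGATTGG at 62 to 55 and AGCAACNGA at 92 to 84 bases, and no match overlapped another. Fscn1 held TGACGTCA at 45 to 38 bases. A match is a run of letters, and binding was not measured.

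H2-Aa, the alpha chain of I-A, read 12.05, 11.75 and 12.02 on the control arrays and 12.04, 12.20 and 12.32 on the smoke arrays at 4 months (replicates 1, 2 and 3). It read 12.16, 12.02 and 12.25 on the control arrays and 11.38, 12.20 and 12.33 on the smoke arrays at 6 months. The groups overlapped at both ages, and the lowest of the 12 values was that of the array that stood apart. The difference was 0.25 (SE 0.20, adjusted p = 0.604) at 4 months and -0.17 (SE 0.20, adjusted p = 0.756) at 6 months, and 0.12 (SE 0.14, adjusted p = 0.739) at 6 months without that array. Its sign at 6 months thus turned on leaving that array out.

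H2-Ab1, the beta chain of I-A, had 4 probes. The brightest, ILMN_1226525, read 13.51, 13.46 and 13.52 in control and 13.42, 13.52 and 13.41 in smoke lungs at 4 months, and 13.41, 13.41 and 13.45 in control and 13.02, 13.63 and 13.64 in smoke lungs at 6 months. Smoke replicates 2 and 3 at 6 months were its highest values and replicate 1 its lowest. ILMN_2607675 went the other way on that array, 13.60 against 12.94 and 13.13 on smoke replicates 2 and 3 at 6 months and 12.79 to 12.91 in control lungs. ILMN_2913716 read 12.53, 12.23 and 12.46 in smoke lungs against 11.91, 11.93 and 12.04 in control lungs at 6 months, so that its groups did not overlap. Over the 12 arrays, which share the normalization, the levels of ILMN_1226525 and ILMN_2607675 correlated at r = -0.57 (Spearman 0.24), but over the other 11 arrays at r = 0.52, so the sign rested on that array. ILMN_2607675 and ILMN_2913716 correlated at r = 0.78, and at 0.72 without it.

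The differences of the 4 H2-Ab1 probes lay between -0.05 and 0.18 at 4 months and between 0.01 and 0.45 at 6 months, and none passed. The lowest adjusted p at 6 months was 0.0844, for ILMN_2913716 (0.45, SE 0.13). Without the array that stood apart the 4 differences at 6 months were 0.21, 0.17, 0.47 and 0.38, with adjusted p-values of 0.309, 0.574, 0.225 and 0.202.

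H2-Eb1, the beta chain of I-E, read 12.87, 12.38 and 12.76 in control and 12.55, 12.78 and 12.75 in smoke lungs at 4 months. At 6 months it read 12.65, 12.62 and 12.63 in control and 12.78, 12.70 and 12.97 in smoke lungs. The groups overlapped at 4 months and did not at 6 months, where all 3 smoke arrays lay above the control arrays. The difference was 0.02 (SE 0.13, adjusted p = 0.955) at 4 months and 0.18 (SE 0.13, adjusted p = 0.557) at 6 months, or 0.20 (adjusted p = 0.583) without the array that stood apart.

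Cd74 had 2 probes. ILMN_1221817 read 13.85, 13.56 and 14.03 in control and 14.03, 14.07 and 14.05 in smoke lungs at 4 months, and 13.76, 13.84 and 13.87 in control and 13.98, 14.01 and 14.11 in smoke lungs at 6 months. At 6 months the groups did not overlap, and at 4 months control replicate 3 equalled the lowest smoke array. The difference was 0.24 (SE 0.12, adjusted p = 0.386) at 4 months and 0.21 (SE 0.12, adjusted p = 0.41) at 6 months, or 0.24 (adjusted p = 0.422) without the array that stood apart. The other probe, ILMN_3089584, gave 0.00 (adjusted p = 0.993) and 0.17 (adjusted p = 0.60, or 0.21 with adjusted p = 0.554 without that array), and its groups overlapped at both ages. The upper ends of the 95% intervals of the 6 month difference were 0.46 for both Cd74 probes, 0.47 for H2-Eb1, 0.32 to 0.74 for the 4 H2-Ab1 probes and 0.27 for H2-Aa. Leaving out the array that stood apart, they were 0.53 and 0.54 for Cd74, 0.54 for H2-Eb1, 0.43 to 0.88 for H2-Ab1 and 0.42 for H2-Aa.

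**Figure D2:**
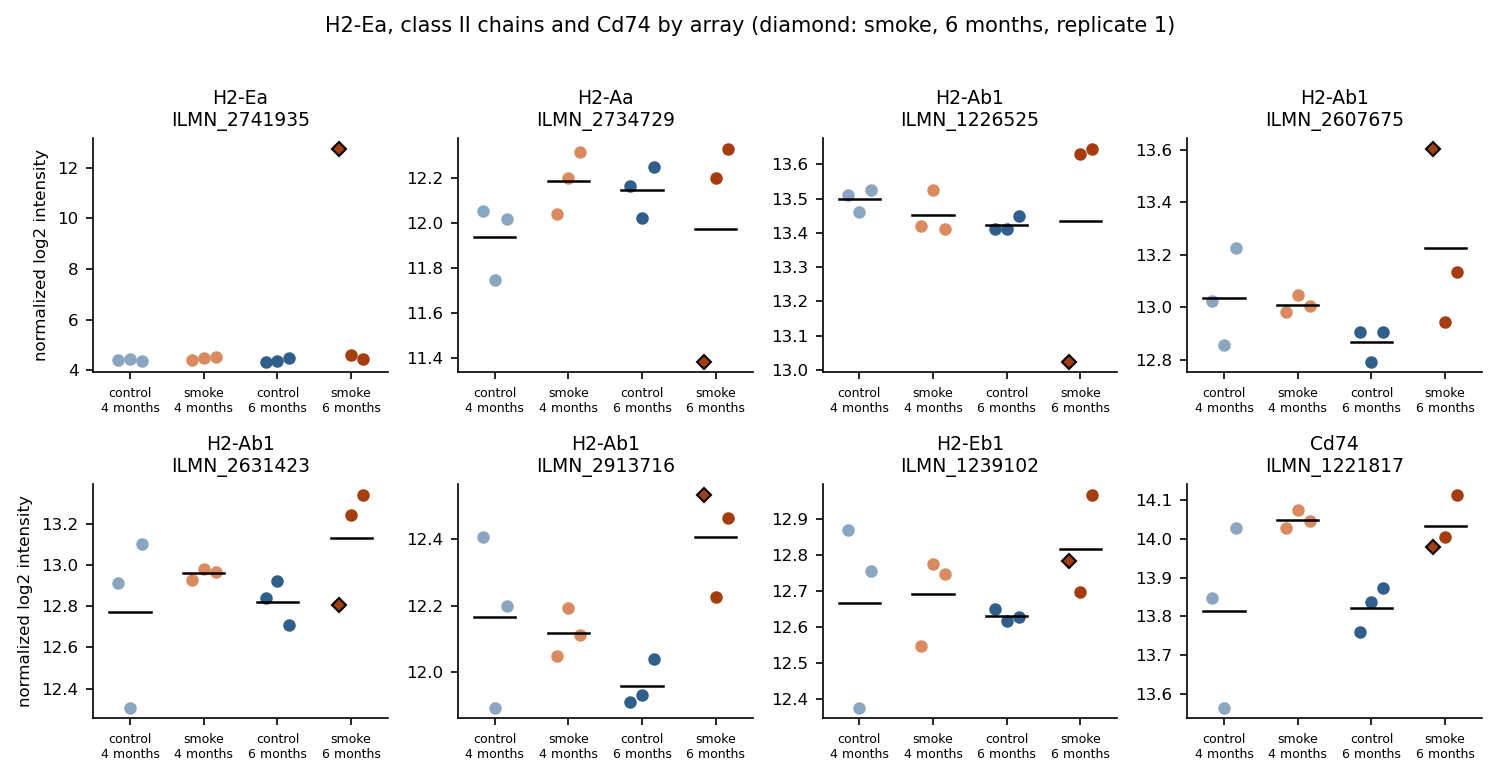
Normalized log2 intensity (vertical axis, a scale of its own in each panel) of H2-Ea and of 7 probes of H2-Aa, H2-Ab1, H2-Eb1 and Cd74 on the 12 arrays, 3 a group, with group means as bars (none for H2-Ea). The diamond is the array labelled smoke, 6 months, replicate 1: H2-Ea read 12.75 there, and it was the lowest array for H2-Aa and for H2-Ab1 probe ILMN_1226525 but the highest for ILMN_2607675 and ILMN_2913716.

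Ciita, which switches on class II transcription, read 8.38, 8.29 and 8.22 in control and 8.06, 7.98 and 8.15 in smoke lungs at 4 months. At 6 months it read 8.15, 8.01 and 7.62 in control and 8.29, 8.10 and 8.22 in smoke lungs. The smoke arrays all lay below the control arrays at 4 months, and the groups overlapped at 6 months. Neither the difference at 4 months (-0.23, SE 0.13, adjusted p = 0.446) nor that at 6 months (0.27, SE 0.13, adjusted p = 0.32, or 0.23 with adjusted p = 0.502 without the array that stood apart) passed. The change in the difference between ages was 0.51 (SE 0.18, adjusted p = 0.528, unadjusted p = 0.0176).

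Itgae was higher in smoke lungs at 6 months. Its probe ILMN_1217629 read 7.59, 7.73 and 7.84 in control and 8.62, 8.73 and 8.75 in smoke lungs at 6 months, and 8.57, 7.97 and 8.42 in control and 8.77, 8.59 and 8.69 in smoke lungs at 4 months. All smoke arrays lay above all control arrays of their age, by little at 4 months, and the 6 month control arrays were the 3 lowest of all 12. The raw intensities behind these values were 169 to 192 in control and 315 to 361 in smoke lungs at 6 months. The difference was 0.98 (SE 0.14, 1.97-fold, adjusted p = 0.0016) at 6 months and 0.36 (SE 0.14, 1.28-fold, adjusted p = 0.274) at 4 months. Itgae rose by 1.02 (adjusted p = 0.00474) at 6 months without the array that stood apart, and by 0.67 (SE 0.10, adjusted p = 0.00131) averaged over both ages.

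CD103, the integrin chain that Itgae encodes, pairs with the beta 7 chain of Itgb7 and binds E-cadherin, the product of Cdh1, and T cells of epithelia carry it as well as dendritic cells. The platform names 6 probes for Itgae, but 3 of them (ILMN_2628900, ILMN_2628899 and ILMN_2656090) carry an accession that the RefSeq table used here does not list for this gene, so their target is less sure. The other 4 tested probes, 2 of these among them, gave differences of 0.73 to 1.05 at 6 months and of 0.37 to 0.60 at 4 months. All 4 passed at 6 months (adjusted p 0.00206 to 0.0402) and none at 4 months. Without the array that stood apart, ILMN_1249573 no longer passed at 6 months (0.71, adjusted p = 0.0662), and the other 4 did. The 4 probes beside ILMN_1217629 then gave 0.71 to 1.17. The probe ILMN_2628899 was detected on 1 of 3 control and on 3 of 3 smoke arrays at 6 months. ILMN_2656090 was detected on 1 array in all, smoke replicate 3 at 6 months. ILMN_1217629 and the next brightest probe ILMN_2699898 ran together over the 12 arrays (r = 0.99).

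Fscn1 read 6.33, 6.18 and 6.97 in control and 7.91, 7.59 and 7.68 in smoke lungs at 6 months, and 7.82, 7.43 and 6.89 in control and 7.46, 7.30 and 7.65 in smoke lungs at 4 months. The groups were apart at 6 months, where control replicate 3 was the nearest to the smoke arrays, and mixed at 4 months, where a control array was the highest. Fscn1 rose by 1.23 (SE 0.23, 2.35-fold, adjusted p = 0.00861) at 6 months, and by 1.14 (SE 0.27, adjusted p = 0.0338) without the array that stood apart. The difference was 0.09 (SE 0.23, adjusted p = 0.892) at 4 months. Averaged over both ages it was 0.66 (SE 0.17, adjusted p = 0.0332), and without the array that stood apart 0.62 (adjusted p = 0.0597). That call was lost on leaving out any of 9 of the 12 arrays, with adjusted p-values of 0.0505 to 0.0881, and was kept without control replicate 1 or 3 at 4 months or control replicate 3 at 6 months.

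Cd86, the ligand of CD28 and CTLA-4 on T cells, had 3 probes. ILMN_2743244 read 7.29, 8.05 and 7.62 in control and 8.42, 8.58 and 8.55 in smoke lungs at 6 months, and 8.26, 7.79 and 7.92 in control and 8.45, 8.39 and 8.65 in smoke lungs at 4 months. The smoke arrays lay above the control arrays at both ages. Cd86 rose by 0.86 (SE 0.18, 1.82-fold, adjusted p = 0.0143) at 6 months, and the other 2 probes rose by 0.89 and 0.94 (adjusted p 0.0208 and 0.00811, or 0.96 and 1.10 with adjusted p 0.0332 and 0.00462 without the array that stood apart). The differences of the 3 probes at 4 months were 0.51, 0.54 and 0.61 and did not pass (adjusted p 0.139 to 0.243). Without the array that stood apart Cd86 rose by 0.91 (adjusted p = 0.0276) at 6 months. The call of ILMN_2743244 at 6 months was lost without control replicate 1 (0.68, adjusted p = 0.054), smoke replicate 2 (0.83, adjusted p = 0.057) or smoke replicate 3 (0.84, adjusted p = 0.06). Averaged over both ages it rose by 0.68 (SE 0.12, adjusted p = 0.00555), a call that no left-out array ended.

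Ccl17 read 7.23, 8.08 and 7.47 in control and 8.35, 8.66 and 8.84 in smoke lungs at 6 months, and 8.13, 7.32 and 8.71 in control and 8.51, 8.59 and 9.03 in smoke lungs at 4 months. Control replicate 3 at 4 months lay among the smoke arrays, whereas at 6 months the groups did not overlap. The difference was 0.66 (SE 0.31, adjusted p = 0.36) at 4 months and 1.02 (SE 0.31, 2.03-fold, adjusted p = 0.0879) at 6 months, or 1.16 (adjusted p = 0.0906) at 6 months without the array that stood apart. The 6 month difference did pass without control replicate 2 or 3 at 4 months (adjusted p = 0.0271 and 0.042), which left it at 1.02 and changed the spread alone. Averaged over both ages Ccl17 was higher by 0.84 (SE 0.22, adjusted p = 0.0378). That call was kept without control replicate 3 at 4 months, control replicate 2 at 6 months or the array that stood apart (adjusted p 0.00852 to 0.0361), and was lost on leaving out any of the other 9 arrays (0.0581 to 0.101).

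Ccl22, the other CCR4 ligand, was detected on 0 of 12 arrays, with values of 4.37 to 4.81, and was not tested. Ccr4 itself was detected on 0 of 12 arrays.

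**Figure D3:**
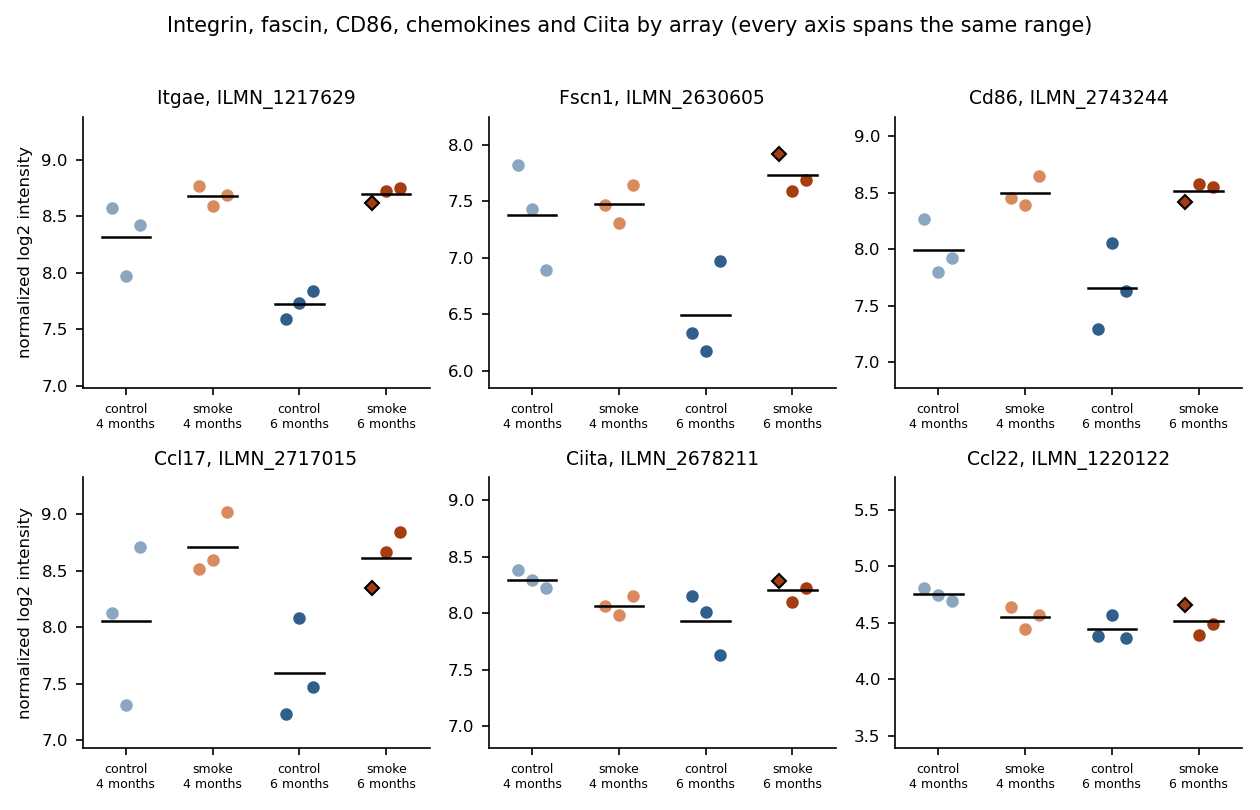
Normalized log2 intensity (vertical axis, the same span in every panel) of Itgae, Fscn1, Cd86, Ccl17, Ciita and Ccl22 on the 12 arrays, 3 a group, with group means as bars; the diamond is the array labelled smoke, 6 months, replicate 1. For Itgae, Fscn1, Cd86 and Ccl17 the 6 month smoke arrays lie above the 6 month control arrays, and the control mean is lower at 6 than at 4 months.

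The smoke groups differed little between ages. From 4 to 6 months of age the smoke group mean went from 8.68 ± 0.09 to 8.70 ± 0.07 for Itgae (SD, n = 3), from 8.50 ± 0.13 to 8.52 ± 0.09 for Cd86, from 7.47 ± 0.17 to 7.73 ± 0.17 for Fscn1 and from 8.71 ± 0.28 to 8.62 ± 0.25 for Ccl17. 0 of 9 genes passed between ages in smoke lungs (0.019% of all tested genes), with 0 at an unadjusted p under 0.05 by limma (10.8% of all), and 0 of 9 passed without the array that stood apart. In control lungs the means went from 8.32 ± 0.31 to 7.72 ± 0.12 for Itgae, from 7.99 ± 0.24 to 7.65 ± 0.38 for Cd86, from 7.38 ± 0.47 to 6.49 ± 0.42 for Fscn1 and from 8.05 ± 0.70 to 7.60 ± 0.44 for Ccl17. 0 of 9 passed there too (0.0569% of all tested genes), and 3 had an unadjusted p under 0.05 by limma: Itgae (-0.60, adjusted p = 0.0926), Fscn1 (-0.89, adjusted p = 0.118) and Ciita (-0.37, adjusted p = 0.187). At that unadjusted level 17.8% of all tested genes lay. The age difference of Itgae in control lungs passed without control replicate 2 at 4 months (-0.77, adjusted p = 0.0339), and that of Fscn1 without control replicate 3 at 4 months (-1.13, adjusted p = 0.0269). The 4 group means of the probe that stood for a gene were put in order from the lowest. Itgae, Fscn1 and Cd86 had the same order: control at 6 months, control at 4 months, smoke at 4 months, smoke at 6 months. For Itgae the 2 smoke groups overlapped and the other neighbours in that order did not. For Cd86 the control groups overlapped each other, the smoke groups overlapped each other, and control and smoke at 4 months did not overlap. For Fscn1 every pair of neighbours overlapped. For Ccl17 the order was control at 6 months, control at 4 months, smoke at 6 months, smoke at 4 months, and every pair of neighbours overlapped. Of the other tested probes of Itgae and Cd86, ILMN_2699898, ILMN_1249573 and ILMN_1217041 had the 2 smoke means the other way round. Their smoke means were 8.66, 6.13 and 8.25 at 4 months and 8.55, 5.99 and 8.24 at 6 months. The rest of these probes kept the order of their gene.

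The smoke difference itself was tested for a change between ages. 0 of 9 genes and 0 of all 10541 tested genes (0%) passed, and by limma 3 of the 9 and 8.3% of all had an unadjusted p under 0.05. The smoke difference was larger at 6 months by 1.14 for Fscn1 (SE 0.33, adjusted p = 0.439, unadjusted p = 0.00455) and by 0.62 for Itgae (SE 0.20, adjusted p = 0.491, unadjusted p = 0.00923), and Ciita was the remaining one, with the values above. For Cd86 it was larger by 0.36 (SE 0.25) and for Ccl17 by 0.36 (SE 0.43), with adjusted p-values of 0.703 and 0.825. None of the 9 passed without the array that stood apart, with 1.05 for Fscn1, 0.66 for Itgae and 0.46 for Ciita. A p that misses the threshold does not show that the ages were alike.

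Over the 9 tested genes the median difference was 0.24 at 4 months and 0.27 at 6 months, beside -0.03 and -0.02 over all tested genes. At 6 months the smoke arrays lay wholly above the control arrays for 6 of the 9 genes (10.7% of all tested genes) and wholly below for 0 (11% of all). These were H2-Eb1, Cd74, Itgae, Fscn1, Cd86 and Ccl17. At 4 months they lay wholly above for 2, Itgae and Cd86 (9.42% of all), and wholly below for Ciita (12% of all). The 6 month median and counts take in the array that stood apart. On smoke replicates 2 and 3 alone, H2-Ab1 probe ILMN_1226525 also lay above the 6 month control arrays (13.63 and 13.64 against 13.41 to 13.45).

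The lists that follow were tested in the same way. Their counts at an unadjusted p under 0.05 (limma) stand beside 14.8% of all tested genes at 4 months and 17.4% at 6 months. Of 12 genes listed as class II presentation machinery, 2 were higher and 0 lower at each age. The list takes in genes that load class II molecules or trim peptides, and others such as the class II chain gene H2-Eb2. The list medians were 0.33 and 0.28 (0.29 at 6 months without the array that stood apart). Ctss, a cathepsin that trims the invariant chain, rose by 1.16 (adjusted p = 0.00916) at 4 months and 0.97 (adjusted p = 0.0128) at 6 months, or 1.08 (adjusted p = 0.0165) without that array. Lgmn, a lysosomal endopeptidase, rose by 0.75 (adjusted p = 0.00392) and 0.77 (adjusted p = 0.0016), or 0.82 without that array. Averaged over the ages, Ifi30, a thiol reductase of the class II compartment, rose by 0.56 (adjusted p = 0.0211) and Tmem176b, a membrane protein of dendritic cells, by 0.36 (adjusted p = 0.0241). Without the array that stood apart 4 of 12 were higher at 6 months, with Ifi30 (0.77, adjusted p = 0.0454) and H2-Eb2, a class II beta chain gene (1.15, adjusted p = 0.0128). H2-Eb2 read 5.89 on that array and 7.13 and 7.27 on the other 2 smoke arrays, against 5.73, 6.22 and 6.21 in control lungs. With that array, the difference of H2-Eb2, a gene named after its values were seen, was 0.71 (adjusted p = 0.264). The Ctss call at 4 months was lost without smoke replicate 3 (adjusted p = 0.052) and that at 6 months without smoke replicate 2 (adjusted p = 0.0579), and Lgmn passed on leaving out any array. The calls of Ifi30 and Tmem176b were lost on leaving out 5 and 6 of the 12 arrays. Both proteases are made by macrophages too. Of the same list, H2-DMa, H2-DMb1 and H2-DMb2 gave -0.01, -0.15 and 0.41 at 4 months and 0.03, 0.25 and 0.31 at 6 months. H2-Oa and H2-Ob gave -0.30 and -0.16 at 4 months and -0.19 and -0.35 at 6 months. Without the array that stood apart H2-Oa and H2-Ob gave 0.09 and 0.06 at 6 months. None of these H2-DM and H2-O genes passed at either age, and they were named after their values were seen.

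The list of class II gene regulators holds promoter factors, and also the cytokine gene Ifng and its receptor genes Ifngr1 and Ifngr2. Of its 10 tested genes 0 passed at either age, with medians of -0.21 and 0.04. At 6 months without the array that stood apart 0 passed as well, with a median of 0.08. By limma 2 at 4 months and 1 at 6 months had an unadjusted p under 0.05. Of all tested genes 17.4% had such a p at 6 months. The NF-Y subunits Nfya, Nfyb and Nfyc gave 0.03, -0.23 and -0.25 at 4 months and 0.16, -0.11 and 0.00 at 6 months, and Rfxap, a subunit of the RFX complex, gave -0.25 and 0.06. Ifng, the cytokine that induces Ciita, gave -0.31 and 0.35, and Irf1 gave -0.19 and 0.34, both named after their values were seen. Rfx5 and Prdm1 were detected on at most 1 array and were not tested.

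Of 18 tested markers of dendritic cell subsets, 3 were higher at each age and 0 lower, with medians of -0.07 and 0.11. By limma 8 had an unadjusted p under 0.05 at each age, beside 14.8% and 17.4% of all tested genes. The lower ones among them at 4 months were Siglech (-0.68), Cd209a (-0.50), Jaml (-0.44) and Tcf4 (-0.31), named after their values were seen. At 6 months these gave -0.17, -0.25, 0.68 and -0.18, and none of them passed at either age. With the array that stood apart left out, 3 markers of the list were higher at 6 months and the median was 0.17. Clec4n, the receptor dectin-2, rose by 1.86 (adjusted p = 0.000805) and 1.81 (adjusted p = 0.000502), or 1.91 without that array. Ly75, the endocytic receptor DEC-205, rose by 1.19 (adjusted p = 0.000457) and 0.91 (adjusted p = 0.00186), or 0.99 without it. Itgax, which encodes CD11c, rose by 1.12 (adjusted p = 0.00237) and 0.59 (adjusted p = 0.0488). Lung macrophages express Clec4n and Itgax as well. Without the array that stood apart Itgax did not pass at 6 months (0.49, adjusted p = 0.14) and Irf4, a transcription factor of conventional dendritic cells, did (0.93, adjusted p = 0.0313). These factors were named after their values were seen: Zbtb46 gave 0.01 and -0.27, Irf8 gave -0.06 and 0.18, and Batf3, needed for CD103 dendritic cells, gave -0.19 and 0.55 (adjusted p = 0.0669 at 6 months). Averaged over ages Sirpa, a receptor of the other conventional subset, rose by 0.74 (adjusted p = 0.0243). The calls of Clec4n and Ly75 were kept on leaving out any array, whereas that of Itgax at 6 months was lost without any of 10 arrays (adjusted p up to 0.185) and that of Sirpa without any of 5.

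Of 15 tested genes of dendritic cell maturation, 0 passed at 4 months (6 at an unadjusted p under 0.05, limma) and 1 was higher at 6 months, with medians of 0.29 and 0.17. Cd274, the inhibitory ligand PD-L1, gave 0.46 (adjusted p = 0.134) at 4 months and rose by 0.63 (adjusted p = 0.0151) at 6 months, or by 0.67 (adjusted p = 0.0261) without the array that stood apart. Averaged over ages 3 others rose: Cd83 (0.62, adjusted p = 0.0181), Lamp3 (0.37, adjusted p = 0.0211) and Cd80 (0.55, adjusted p = 0.0468). Lamp3 is also a gene of alveolar type 2 cells, and Cd80 was detected on 0 of 3 control arrays at 6 months, where its rise was a bound of at least 1.05-fold (adjusted p = 0.227). Ccr7, the receptor that guides mature dendritic cells to lymph nodes, gave 0.17 and -0.20 (adjusted p = 0.784 and 0.775) and was named after its values were seen. Without that array Cd80 passed at 6 months as well (adjusted p = 0.0358), which made 2 of 15, and the list median was 0.17. Cd274 passed averaged over ages on leaving out any array, but its call at 6 months was lost without control replicate 2 or 3 or smoke replicate 2 or 3 at 6 months. The calls averaged over ages were lost on leaving out any of 10 arrays for Cd80, 5 for Lamp3 and 3 for Cd83.

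Of 8 tested binding partners and receptors of these proteins, 0 passed at 4 months (3 at an unadjusted p under 0.05, limma) and 1 at 6 months, with medians of -0.04 and 0.12 (0.30 at 6 months without the array that stood apart). Lag3, an inhibitory class II receptor of T cells, gave -0.48 (adjusted p = 0.165) at 4 months and rose by 0.58 (adjusted p = 0.0406) at 6 months, or by 0.67 (adjusted p = 0.0351) without the array that stood apart. Its call was lost on leaving out any of 7 arrays (adjusted p up to 0.167), among them all 3 smoke arrays at 4 months. Ctla4, the inhibitory receptor for CD86, rose by 0.68 (adjusted p = 0.042) averaged over ages, a call lost without any of 8 arrays. Itgb7, the partner of CD103, gave -0.56 and -0.06, and Cdh1 gave 0.11 and 0.10. Cd4, the class II coreceptor of helper T cells, was detected on 0 of 3 control and 2 of 3 smoke arrays at 6 months, at least 1.11-fold higher there (adjusted p = 0.0531, or 0.149 without that array). None of these 3 passed.

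Cells other than dendritic cells also express these genes, and their markers are set beside them. Of 10 tested macrophage markers 7 were higher at 4 months and 9 at 6 months, with medians of 1.00 and 1.32. At 6 months 9 were higher, with a median of 1.44, when the array that stood apart was left out. Their mean level was 8.67 to 9.08 on the control arrays and 9.84 to 10.01 on the smoke arrays at 4 months, and 8.61 to 8.91 and 9.77 to 10.15 at 6 months. Marco rose by 1.58 and 2.05, Ms4a7 by 1.87 and 2.20, and C1qa, a complement gene of macrophages, by 0.89 and 1.46 (adjusted p 6.09e-06 to 0.0126). C1qb and C1qc, its partners, rose by 1.12 and 1.14 at 4 months and by 1.49 and 1.54 at 6 months, Adgre1, a macrophage surface receptor, by 1.17 at both ages and Mrc1, the mannose receptor, by 0.63 and 0.62 (adjusted p 0.000718 to 0.0109). Chil3, a chitinase-like protein, and Pparg rose at 6 months by 0.82 and 0.50 (adjusted p = 0.0351 and 0.0415), calls lost on leaving out any of 5 and 8 arrays, and gave 0.77 and 0.35 at 4 months. Siglecf and Fabp4 were detected on 0 of 12 arrays. Without smoke replicate 3 at 4 months 3 of 10 macrophage markers were higher at that age. The part of macrophages in the differences of Itgae, Fscn1, Cd86 and Ccl17 was not tested.

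At 4 months 0 of 9 B cell markers and 0 of 10 T cell markers passed (2 and 1 at an unadjusted p under 0.05, limma), and at 6 months 0 and 1, with medians of 0.04 and -0.08 at 4 months and -0.01 and 0.03 at 6 months. In both lists 0 passed at 6 months without the array that stood apart, with medians of 0.10 and 0.13. The B cell markers Ms4a1 (CD20), Cd22 and Blk gave 0.36, 0.19 and -0.52 at 4 months and -0.17, 0.09 and -0.16 at 6 months. The T cell markers Cd3d, Thy1 and Il7r gave -0.32, -0.41 and 0.62 at 4 months and -0.04, 0.11 and 0.00 at 6 months. Foxp3, the factor of regulatory T cells, rose by 0.77 (adjusted p = 0.0344) at 6 months, with 0.82 (adjusted p = 0.0543) without the array that stood apart. Its call was also lost without control replicate 1 or 2 or smoke replicate 2 or 3 at 6 months, or smoke replicate 1 at 4 months (adjusted p up to 0.145). Fcer2a, the low-affinity IgE receptor of B cells, rose by 0.73 (adjusted p = 0.0172) averaged over ages. Cd8a was detected on 0 of 12 arrays. The mean level of the T cell markers was 7.31 to 8.44 on the 4 month control arrays and 7.98 to 8.11 on the 6 month smoke arrays.

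0 of 12 genes of class I presentation and 0 of 8 alveolar type 2 markers passed at either age. At an unadjusted p under 0.05 (limma) these counts were 5 and 2 at 4 months and 0 and 1 at 6 months. Of the 5 class I genes, H2-D1 and Calr were higher and Tap1, Tap2 and Nlrc5 lower. Both lists had 0 passing at 6 months without the array that stood apart, with medians of 0.12 and 0.10. The class I heavy chain H2-D1, the peptide transporter Tap1, tapasin (Tapbp) and calreticulin (Calr) gave 0.54, -0.64, 0.37 and 0.66 at 4 months and 0.11, 0.13, 0.16 and 0.58 at 6 months. Of the type 2 cell genes, the surfactant protein gene Sftpa1 gave 0.19 and 0.18, the phosphate transporter gene Slc34a2 gave 0.33 and 0.15, and Lyz2 gave 0.18 and 0.02. Of 6 endothelial markers 0 passed at 4 months (2 at an unadjusted p under 0.05, limma) and Tek, the angiopoietin receptor, fell by 0.53 (adjusted p = 0.048) at 6 months, a call that 11 of the 12 left-out arrays ended. Tie1, a related receptor, fell by 0.38 (adjusted p = 0.0338) averaged over ages, a call that 9 ended. Cdh5 gave -0.24 and -0.41 and Ramp2 gave -0.32 and -0.24, and neither passed. At 6 months 0 of 6 passed without the array that stood apart, with a median of -0.39.

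**Figure D4:**
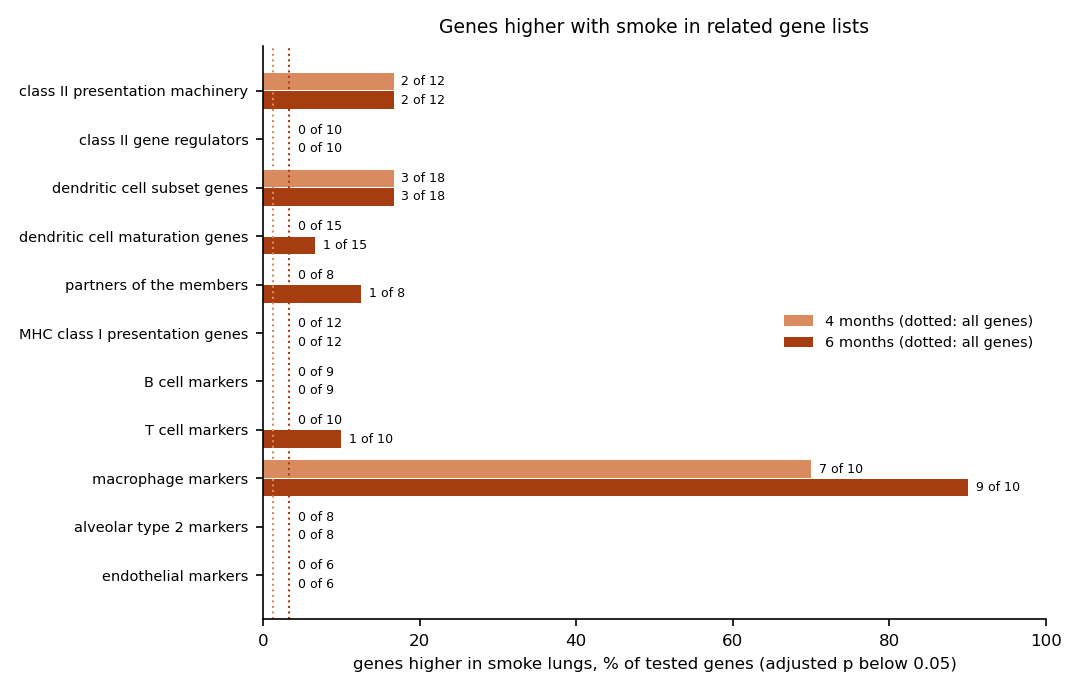
Percent of the tested genes of each list that were higher in smoke lungs (limma adjusted p below 0.05) at 4 and 6 months, with the counts beside the bars; dotted lines give the share of all tested genes, 1.28% at 4 months and 3.35% at 6 months. The macrophage markers stand at 7 and 9 of 10. The lists of class II gene regulators, class I presentation, B cells, alveolar type 2 cells and endothelium stand at 0.

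The genes whose levels ran most closely with each of the genes over the 12 arrays are given as a description. The arrays share the normalization and the smoke contrast. Itgae ran with Slc26a4, the anion exchanger pendrin (r = 0.98), Noxo1, an organizer of an NADPH oxidase (r = 0.97), and Chil1, a chitinase-like protein (r = 0.96). Slc26a4 and Noxo1 were higher in smoke lungs at 6 months by 2.63 and 2.40 (adjusted p = 0.0039 and 0.00121). Cd86 ran with Gpr176, a G protein-coupled receptor (r = 0.96), Lrg1 (r = 0.95) and the macrophage complement gene C1qa (r = 0.95). Fscn1 ran with the DNA repair genes Rad54l and Rad54b (r = 0.95 for both) and with Scamp2 (r = 0.94). Rad54l had differences of -0.12 at 4 months and 0.99 (adjusted p = 0.00187) at 6 months. Ccl17 ran with Ifi30 (r = 0.94), with Il4i1, an amino acid oxidase of antigen presenting cells (r = 0.93), and with Rrm1 (r = 0.92).

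For the class II genes the closest correlations over the 12 arrays were lower, apart from those of Cd74. H2-Aa ran with H2-Q7, a class I gene (r = 0.86), Wdr46 (r = 0.86) and Pde4b (r = 0.84). H2-Ab1 ran with H2-T10 (r = 0.82), which read 5.13 on the array that stood apart and 6.03 to 6.51 on the others, and with Zfyve1 (r = 0.81) and Cep68 (r = 0.80). Without that array r was 0.70, 0.57 and 0.53 for the 3 genes of H2-Aa, and 0.18, 0.40 and 0.70 for those of H2-Ab1. H2-Eb1 ran with Aqp3, H2ac20 and Eif3f (r = 0.85 for each), and Cd74 with Lrrk2, Nucb1 and Rnaset2b (r = 0.94, 0.94 and 0.93). Ciita ran with Hyou1, Grina and Ankrd49 (r = 0.87 for each). Leaving out the array that stood apart gave r of 0.89, 0.84 and 0.93 for the 3 genes of H2-Eb1. It gave 0.96, 0.94 and 0.94 for those of Cd74 and 0.86, 0.89 and 0.88 for those of Ciita. Itgae and Cd86 correlated with each other at r = 0.90 over the 12 arrays, and at 0.58 for deviations from group means. For such deviations the other tested Itgae probes gave -0.10 to 0.63 with the same Cd86 probe.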

How the data were processed

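Total RNA of whole lung was prepared with spin columns and a DNase step and labelled with biotin for Illumina mouse bead arrays, per the labels' protocols. Per the file headers, the authors deposited a raw probe intensity and a detection p-value for each array. From 18.3 to 21.0% of the intensities of an array lie below 0, so the deposited intensity had a background subtracted. The authors' second table, used as an alternative, holds linear intensity with a median of 49 or 50 on every array. No source used here gives its normalization and centring, the scanner software or the subtraction method.

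With limma 3.58.1 in R 4.3.3, neqc was run on the raw intensity: normal-exponential background correction with the control distribution taken from detection p-values, an added offset of 16, quantile normalization and log2. The offset understates changes of dim probes. Of 25697 probes, 15490 had a detection p below 0.05 on at least 3 arrays and were tested, 19 of them probes of the genes described. Platform symbols were updated through gene identifiers, with 23978 probes named and 1719 unnamed here.

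One linear model of the 4 group means took in all 12 arrays (lmFit, eBayes, 8 residual and 4.54 prior degrees of freedom). Tested were smoke minus control at 4 and at 6 months, the mean and the difference of these, and 6 against 4 months in control and in smoke lungs, with two-sided p-values. The script was tested on simulated data. Where a group had no detected array, a fold is a bound: the mean of the brighter group against, per array of the dimmer, the higher of the lowest detected signal and the probe's own.

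The genes described, the 11 gene lists and the tests were chosen with earlier results of these data known, and a list's count supports nothing on its own. Of each list, the 4 genes with the smallest p averaged over ages and any that passed at either age are named. Of each tested gene described, the 3 genes with the highest Pearson correlation over the arrays are named.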

Additional observations from a re-analysis of the deposited data

Results flagged for a closer look

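The H2-Ea probe ILMN_2741935 read 12.75 (raw intensity 5893) on the array labelled smoke, 6 months, replicate 1, a signal outside the genes compared and far above all 6 control arrays, none of which detected it. On that array H2-Aa read 11.38, against 11.75 to 12.33 on the other 11, and H2-T10 read 5.13, against 6.03 to 6.51. The genotype of that animal and a mix-up of tissue were not tested.

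The probe ILMN_2656090, which the platform names Itgae but whose accession the RefSeq table used here does not list for that gene, was left out of the tests for its low signal. It read 4.94 on smoke replicate 3 at 6 months and was detected there and on none of the control arrays.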

How the results depend on the processing

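The counts of genes of the set that passed were recomputed with cyclic loess, scaling to equal medians, an offset of 50, the values of the authors' other table, the background left as deposited, no detection filter, detection on all 12 arrays, array weights, the mean over a gene's probes, only the groups compared, a replicate block and without each array in turn. At 4 months the count was 0 in each. At 6 months it was 3, except 4 with array weights and 2 to 4 without single arrays. Averaged over ages it was 4, but 2 with no detection filter, 3 with the replicate block, 5 with array weights and 2 to 5 without single arrays. Between ages in control lungs it was 0, but 2 with array weights (Itgae and Fscn1) and 0 to 1 without single arrays. Between ages in smoke lungs, and for the change of the smoke difference, it was 0 in each. Itgae and Fscn1 passed at 6 months in every alternative, at 0.88 to 1.04 and 0.98 to 1.47. With array weights 6.15% of all tested genes passed at 4 months, beside 1.65%.

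The sign of small differences turned in some settings. H2-Aa at 6 months was 0.0436 with array weights. H2-Ab1 at 4 months was 0.03 with scaling, 2e-04 with cyclic loess and 0.0162 over its probes, and at 6 months -0.0199 with scaling. With array weights H2-Eb1 was -0.0581 at 4 months, Ciita -0.0196 averaged over ages and Fscn1 -0.14 at 4 months. Without single arrays the ranges were -0.35 to 0.12 for H2-Aa and -0.10 to 0.21 for H2-Ab1 at 6 months, -0.12 to 0.12 for H2-Eb1 and -0.16 to 0.31 for Fscn1 at 4 months, and -0.0557 to 0.0755 for Ciita averaged over ages. The cause was not tested.

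For same-numbered replicates the r of deviations from group means ran from -0.39 to 0.25. Arrays with different numbers were not set beside them, so these values cannot tell whether the numbers pair the arrays. With the replicate block the adjusted p of Fscn1 averaged over ages was 0.051. No chip was given, so a chip block was not run, and the fit of only the groups compared gives no average or change over ages.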
